A study of Mus musculus with 2 samples.

Results

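The scavenger and liposome uptake receptors are 10 mouse genes: Msr1, Marco, Colec12, Cd36, Scarb1, Cd163, Cd5l, Stab1, Mrc1 and Lrp1. Their products, apart from that of Cd5l, bind modified lipoproteins, haemoglobin complexes, glycans, dying cells or particles and carry them into the cell. Cd5l encodes a secreted protein and is counted with the receptors here. The 10 genes were chosen by name, as the rows of both deposited tables whose gene symbol is one of these, and all 10 were found, each on 1 row, among 22886 genes. Of the 10, all but Cd5l averaged 1 RPKM or more, which leaves 9 receptors among the 10982 genes kept. RPKM is the number of reads scaled to transcript length and to library size, so that levels of different genes can be compared per length.

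The data are 2 libraries of polyadenylated RNA from cells that the labels call aerobic tumor cells, sorted by FACS (flow cytometry) from subcutaneous LLC (Lewis lung carcinoma, a mouse lung tumor line) tumors of wild type C57BL/6 mice. One library came from mice given a vehicle injection and the other from mice given a clodronate injection. Clodronate is a drug that kills phagocytic cells once it has been taken up, for which it is commonly enclosed in liposomes, but the form, dose and timing used, the age and number of the mice and the gates of the sort are not given in the sources used here. A growth protocol in the labels describes EML cells, a blood progenitor line, and conflicts with the other labels. With 1 library per condition, no difference below could be checked against replicates, and p-values are not given.

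Scavenger receptors are surface proteins of macrophages, and of some endothelial cells, that recognise many unrelated, mostly negatively charged ligands. Ligand and receptor are taken in together, usually in clathrin-coated pits, and are sorted in endosomes towards lysosomes or back to the surface. Several of these receptors also bind particles, and macrophages that carry them take up liposomes.

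The labels call these cells aerobic tumor cells, and macrophage genes were abundant in both libraries. All 14 macrophage markers were kept, the lowest at 22.5 RPKM in the vehicle library and 42.3 RPKM in the clodronate library, and their summed level was 30299 RPKM and 27543 RPKM. Markers of epithelial and tumor cells were low, with 4 of 8 kept and a summed level of 16.9 RPKM for vehicle and 10.97 RPKM for clodronate. Among them, Epcam, Krt19 and Sftpc were listed at 0 in both, and Cdh1, the highest, was at 6.14 and 6.44 RPKM. Whether tumor cells were present was not tested. The macrophage markers had a median log2 ratio of -0.07, with 7 of 14 higher and 7 lower in the clodronate library. Ratios are clodronate over vehicle, and a log2 ratio was taken after adding 1 to each RPKM, so that it is too small for scarce genes. Every count past 2-fold or 1.5-fold uses this ratio, and a gene of a few RPKM can differ more in plain RPKM than its count shows. In bulk RNA, fewer cells of a type and less RNA per cell cannot be told apart.

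The receptors spanned a wide range of levels and were ordered in nearly the same way in both libraries. Lrp1, Msr1, Stab1 and Mrc1 were the 4 highest in both, the lowest being Mrc1 at 174 RPKM in the vehicle library, and together they held 87.0% of the summed level of the 10 receptors in the vehicle library and 88.1% in the clodronate library. Cd36, Scarb1 and Cd163 came next, then Colec12 and Marco, and Cd5l was last. The summed level of the 10 was 999 RPKM in the vehicle library and 1484 RPKM in the clodronate library, 1.48-fold higher.

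**Figure D1:**
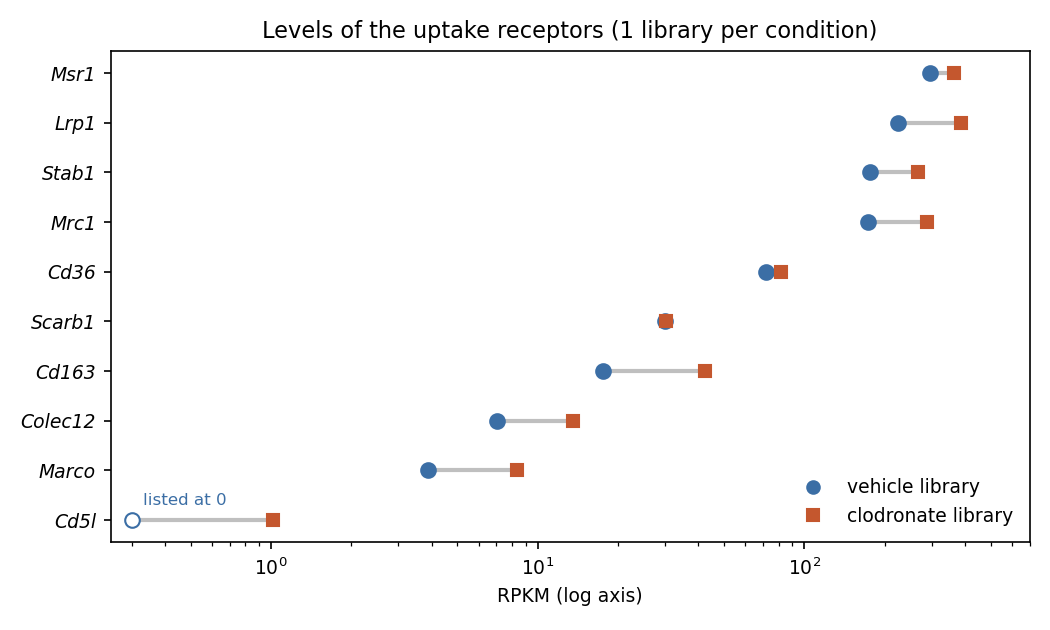
Level of each receptor in RPKM on a log axis, with a circle for the vehicle library and a square for the clodronate library, 1 library each. The 4 highest receptors run from 174 RPKM (Mrc1, vehicle) to 386 RPKM (Lrp1, clodronate), Marco and Colec12 below 14 RPKM, and the open circle marks Cd5l, whose listed vehicle value is 0 and which is drawn at an arbitrary place.

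All 9 receptors kept, each at 1 RPKM or more in both libraries, had a log2 ratio above 0, against 51.6% of the 10982 genes kept, although Scarb1 was at 0.00 and lay below 0 when corrected as described below. Their median log2 ratio was 0.73, while that of all genes kept was 0.02, with quartiles of -0.38 and 0.40. At least 2-fold higher in the clodronate library was 1 of 9, Cd163, where 6.95% of all genes kept were, and 0 of 9 were 2-fold lower, where 6.77% of all genes kept were. At least 1.5-fold higher were 6 of 9, Marco, Colec12, Cd163, Stab1, Mrc1 and Lrp1, against 16.6% of all genes kept, and 0 of 9 were 1.5-fold lower, against 16.3%. A correction for base composition and transcript length left 4 of the 6 above 1.5-fold, Marco, Colec12, Cd163 and Mrc1, and gave the receptors a median of 0.55. The share of all genes past 1.5-fold after this correction was not counted. At 2-fold after it, 1 of the 9 receptors (Cd163) was higher, as were 759 of 10844 genes.

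The low RPKM values move in steps of 1 read, from which the depth was estimated as about 13779900 reads for vehicle and 11238500 for clodronate. The intervals given below come from read numbers estimated in this way and cover counting error only, not the spread between libraries. The corrected values are given because the log2 ratio moved with base composition over all genes: among 10 bins by GC content, the median was -0.24 in the bin with the least GC and 0.29 in the one with the most.

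**Figure D2:**
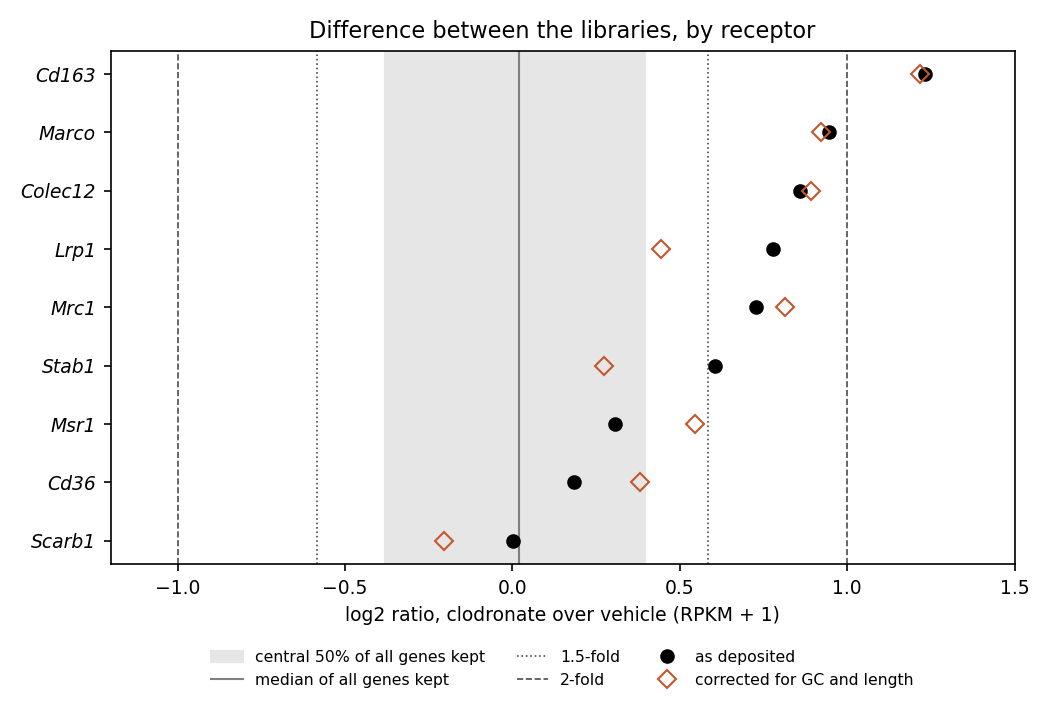
Log2 ratio of each receptor kept, clodronate over vehicle, as deposited (filled circles) and corrected for GC content and transcript length (open diamonds), beside the median (line) and the central 50% (grey band) of all genes kept, with dotted lines at 1.5-fold and dashed lines at 2-fold. Cd163 lies beyond 2-fold by both values, at 1.23 and 1.22, and Stab1 and Lrp1 fall below 1.5-fold when corrected.

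Among the class A receptors of the set, Msr1 was abundant and higher in the clodronate library by less than 1.5-fold. Marco and Colec12 were scarce and higher there by more than 1.5-fold. Msr1 (mm9 chromosome 8, 40667054 to 40728032) encodes scavenger receptor A, which binds acetylated and oxidised low density lipoprotein. It was at 295 RPKM in the vehicle library and 365 RPKM in the clodronate library, 1.24-fold higher with a counting interval of 1.20 to 1.27. It was the highest of the 10 in the vehicle library and the second in the clodronate library, above 97.2% and 97.7% of the genes kept. Its log2 ratio of 0.30 became 0.55 when corrected, still under 1.5-fold.

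Marco (mm9 chromosome 1, 122371115 to 122401661) encodes a collagen-like receptor for bacteria and inhaled particles that is best known from macrophages of the lung, spleen marginal zone and liver. It was at 3.87 RPKM for vehicle and 8.38 RPKM for clodronate, about 92 and 162 reads. The plain ratio was 2.17, with a counting interval of 1.66 to 2.82, and the log2 ratio with 1 added was 0.95, just under 2-fold.

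Colec12 encodes a membrane collectin with a sugar-binding domain, known from endothelial cells more than from macrophages. It lies on mm9 chromosome 18, 9707646 to 9877993. Its level was 7.05 RPKM for vehicle and 13.6 RPKM for clodronate, 1.93-fold higher with a counting interval of 1.76 to 2.11, and the corrected log2 ratio of 0.89 was close to the 0.86 as deposited. Endothelial markers were low beside it, with 2 of 10 kept (Pecam1, 1.24 and 3.33 RPKM, and Cdh5, 0.480 and 3.24 RPKM), a summed level of 3.34 RPKM for vehicle and 8.31 RPKM for clodronate, and Tek, Emcn, Prox1 and Cldn5 listed at 0 in both. Colec12 thus moved in the same direction as the 2 endothelial markers kept, both near the floor. Cdh5 was below 1 RPKM in the vehicle library, and Vwf, not kept, went the other way at 0.967 and 0.443 RPKM. The part of these markers in the result was not tested.

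The class B receptors had the smallest differences as deposited, while when corrected Stab1 (0.27) differed less than Cd36 (0.38). Cd36 (mm9 chromosome 5, 17287508 to 17394777) takes up oxidised lipoprotein and long-chain fatty acids and binds thrombospondin. It was at 71.9 RPKM for vehicle and 81.7 RPKM for clodronate, 1.14-fold higher with a counting interval of 1.078 to 1.201. Scarb1 (mm9 chromosome 5, 125757457 to 125821464) encodes SR-BI, the receptor that takes up cholesteryl esters from high density lipoprotein. It was at 30.1 RPKM and 30.2 RPKM, a ratio of 1.002 with a counting interval of 0.908 to 1.11, and was the receptor nearest to no difference. The corrected log2 ratios were 0.38 for Cd36 and -0.20 for Scarb1, the only receptor whose sign turned.

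Cd163 showed the largest difference of the 9 receptors kept. It encodes the receptor for haemoglobin bound to haptoglobin, is expressed by monocytes and macrophages, and lies on mm9 chromosome 6, 124254669 to 124280545. Its level was 17.5 RPKM in the vehicle library and 42.4 RPKM in the clodronate library, about 1017 and 2011 reads, 2.42-fold higher with a counting interval of 2.25 to 2.62. The log2 ratio of 1.23 was higher than that of 95.2% of the genes kept, was 1.22 when corrected, and was 1.30 above the median of the macrophage markers. Relative to Mrc1, the RPKM of Cd163 was 0.101 in the vehicle library and 0.147 in the clodronate library.

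Cd5l, like Cd163, is a gene of the scavenger receptor cysteine-rich family, and encodes a secreted protein, also called AIM, that tissue macrophages release. It lies on mm9 chromosome 3, 87161803 to 87174996, with a listed value of 0 for vehicle and 1.02 RPKM for clodronate, the latter about 21 reads with a counting interval of 13.0 to 32.1. A 0 in these tables can be a failed estimate, since 39 genes have a 0 for vehicle and 10 RPKM or more for clodronate, so no fold is given.

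Stab1 encodes stabilin-1, a receptor of macrophages and sinusoidal endothelium for modified lipoprotein, SPARC and dying cells. It was at 175 RPKM for vehicle and 268 RPKM for clodronate, 1.52-fold higher with a counting interval of 1.496 to 1.554. The log2 ratio was 0.61 as deposited and 0.27 when corrected, which is below 1.5-fold. The deposited locus (mm9 chromosome 14, 31948039 to 31981827) is shared with Nt5dc2, at 161 and 148 RPKM, and reads of the genes could be split between them.

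Mrc1 encodes the mannose receptor CD206, which takes up glycoproteins and microbes that end in mannose, and is widely used as a marker of alternatively activated and resident macrophages. On mm9 chromosome 2, 14151041 to 14253650, it was at 174 RPKM for vehicle and 289 RPKM for clodronate, 1.66-fold higher with a counting interval of 1.62 to 1.70. The corrected log2 ratio of 0.81 lay above the 0.73 as deposited. In the vehicle library, the counting intervals of Stab1 (173 to 178 RPKM) and Mrc1 (171 to 177 RPKM) overlapped, while in the clodronate library Mrc1 was above Stab1.

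Lrp1 encodes a large endocytic receptor of the low density lipoprotein receptor family that takes up alpha-2-macroglobulin, apolipoprotein E and protease complexes. On mm9 chromosome 10, 126975214 to 127058204, its level was 225 RPKM for vehicle and 386 RPKM for clodronate, 1.72-fold higher with a counting interval of 1.70 to 1.74. It was the second highest of the 10 in the vehicle library and the highest in the clodronate library. The log2 ratio was 0.78 as deposited and 0.44 when corrected, again below 1.5-fold. Fibroblasts also express Lrp1. Of 10 fibroblast markers 8 were kept, summed at 160 RPKM for vehicle and 76.9 RPKM for clodronate with none at 0 in both. Col1a1 was higher in the clodronate library, at 2.32 and 5.40 RPKM, and the other 7 markers kept were lower. Their part in the level of Lrp1 was not tested.

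**Figure D3:**
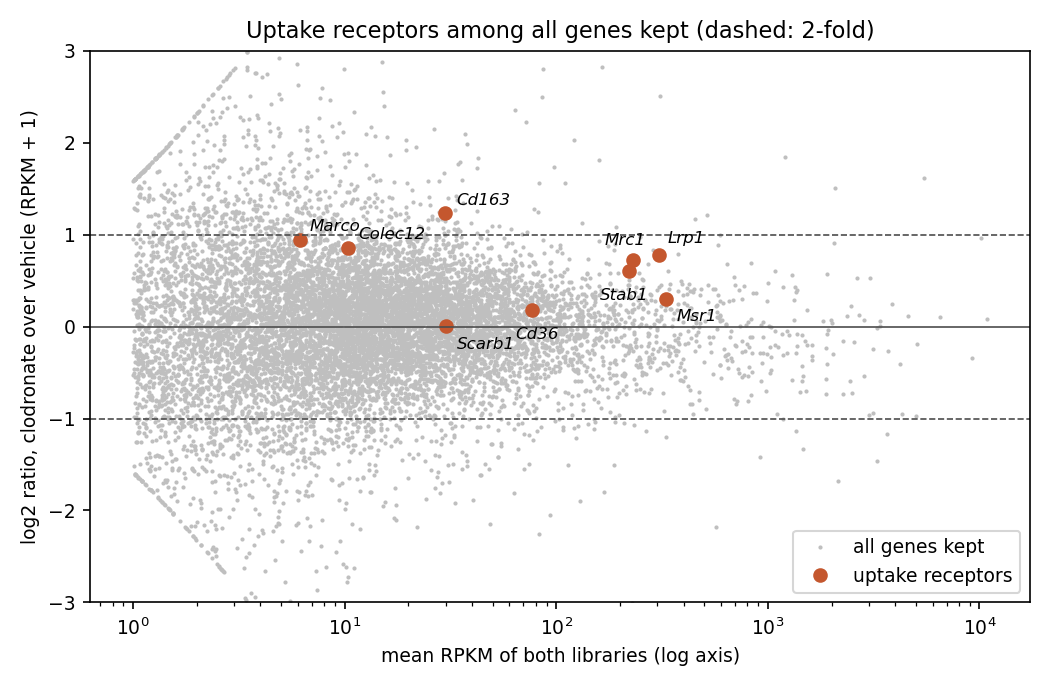
Log2 ratio against mean RPKM of both libraries (log axis) for the 10982 genes kept (grey) with the 9 receptors kept (orange) and dashed lines at 2-fold. A total of 78 genes beyond a log2 ratio of 3 lie outside the plot, and the receptors lie in its upper part at both low and high levels, with Cd163 above the 2-fold line.

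To show the regions upstream of genes that differed, the 250 bases before the transcription start were read from RefSeq promoters of GRCm38.p6, a different build from the mm9 of the loci above. The table used held such a region for 7 receptors, Marco, Cd36, Cd163, Cd5l, Stab1, Mrc1 and Lrp1. Short motifs were searched on both strands. They were GAGGAA, which the macrophage factor PU.1 (gene Spi1) can bind, AP-1 (TGANTCA), C/EBP (TTGCNNAA) and a MAF half-site (TGCTGA). The shorter GGAA was not searched by itself. GAGGAA was found in 4 of 7, Marco, Cd5l, Stab1 and Mrc1, against 23.3% of 32851 mouse promoters. The MAF half-site was found in 3 of 7, against 16.1%, and the AP-1 and C/EBP motifs in 0 of 7, against 6.75% and 9.56%. The 3 regions with GAGGAA among the receptors more than 1.5-fold higher are printed with Cd163, the receptor with the largest difference, which has none. Capitals mark GAGGAA, or TTCCTC where it reads on the other strand, and each region runs 5′ to 3′ along the gene.

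Marco, chr1:120505025-120505274, minus strand: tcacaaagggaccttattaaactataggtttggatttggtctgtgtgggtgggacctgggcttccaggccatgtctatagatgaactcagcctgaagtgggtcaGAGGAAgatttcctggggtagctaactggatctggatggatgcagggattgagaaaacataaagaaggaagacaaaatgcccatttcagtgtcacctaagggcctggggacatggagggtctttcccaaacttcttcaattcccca
Stab1, chr14:31168642-31168891, minus strand: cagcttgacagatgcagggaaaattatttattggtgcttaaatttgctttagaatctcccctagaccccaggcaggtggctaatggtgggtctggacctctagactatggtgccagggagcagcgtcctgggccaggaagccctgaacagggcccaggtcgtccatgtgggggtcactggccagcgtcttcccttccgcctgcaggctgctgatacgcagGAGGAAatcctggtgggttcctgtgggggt
Mrc1, chr2:14229164-14229413, plus strand: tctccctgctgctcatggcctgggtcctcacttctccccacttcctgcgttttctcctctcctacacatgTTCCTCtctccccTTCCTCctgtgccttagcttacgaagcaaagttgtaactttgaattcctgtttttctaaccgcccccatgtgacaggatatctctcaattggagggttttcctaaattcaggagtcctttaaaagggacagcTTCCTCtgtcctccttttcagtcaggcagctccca
Cd163, chr6:124304401-124304650, plus strand: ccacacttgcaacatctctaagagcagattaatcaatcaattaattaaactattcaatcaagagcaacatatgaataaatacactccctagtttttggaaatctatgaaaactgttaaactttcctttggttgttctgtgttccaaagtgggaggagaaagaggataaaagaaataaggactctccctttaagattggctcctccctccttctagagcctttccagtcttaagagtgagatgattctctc

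The Mrc1 region holds the motif 3 times, from 180 to 175, 167 to 162 and 35 to 30 bases before the start, all on the other strand. In Marco it lies 146 to 141 bases before the start and in Stab1 30 to 25. These matches describe the letters in the windows, and binding was not measured. Spi1, which encodes PU.1, was at 208 RPKM for vehicle and 333 RPKM for clodronate, a log2 ratio of 0.68 as deposited and 0.44 when corrected, which is below 1.5-fold.

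The transcription factors known to act on these receptors were otherwise mixed. Of 14, 0 were at least 2-fold different, 2 were at least 1.5-fold higher (Spi1, and Irf4 at 4.62 and 8.06 RPKM) and 2 lower (Pparg at 5.47 and 2.27 RPKM, Spic at 2.46 and 1.09 RPKM). When corrected, Spi1 and Spic (-0.55) lay within 1.5-fold, and Irf4 (0.67) and Pparg (-0.83) did not. Their median log2 ratio was 0.17, or 0.00 when corrected. Pparg encodes the fatty acid-activated nuclear receptor that can raise Cd36, and Spic a factor of red pulp macrophages that handle iron. Maf, at 54.0 and 72.5 RPKM, lay within 1.5-fold.

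Related receptors outside the 10 were mixed. Of 13 other scavenger receptors, 9 were kept, 0 were 2-fold different, 1 was at least 1.5-fold higher (Scarf1, an endothelial receptor for modified lipoprotein, at 5.60 and 10.3 RPKM) and 3 at least 1.5-fold lower. The lower ones were Cxcl16, a membrane chemokine that binds oxidised lipoprotein, at 261 and 167 RPKM, Scara3 at 2.61 and 0.972 RPKM and Ager at 3.15 and 1.49 RPKM. The median of the 9 was 0.03, or -0.28 when corrected. The correction brought Scarf1 from 0.78 to 0.44, below 1.5-fold, and Scara3 from -0.87 to -1.02, past 2-fold. Cd68, a lysosomal glycoprotein of macrophages, was at 1183 and 1536 RPKM. The mannose receptor relatives Mrc2, Pla2r1 and Ly75 were not kept, with no value above 0.544 RPKM, so that Mrc1 was the one member of its family with a level above the filter.

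Of 12 other genes of the low density lipoprotein receptor family, 8 were kept and 1 was at least 1.5-fold higher (Lrp8, at 2.17 and 4.57 RPKM), with a median of 0.25, or -0.03 when corrected. Lrp10, the highest of them in the clodronate library, was at 39.7 and 50.5 RPKM. The chaperone Lrpap1, which keeps ligands off Lrp1 in the secretory pathway, was at 38.8 and 37.9 RPKM. Furin, the protease that cleaves the Lrp1 precursor, was at 72.9 and 135 RPKM, a log2 ratio of 0.88 that was 0.52 when corrected, below 1.5-fold. Mesdc2, a chaperone of the family, was at 11.4 and 5.74 RPKM, at least 1.5-fold lower as deposited (-0.88) and when corrected (-0.95). The sheddases Adam10, at 59.2 and 55.4 RPKM, and Adam17, which also cleaves CD163 from the surface, at 42.0 and 53.5 RPKM, lay within 1.5-fold.

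The clathrin uptake machinery was kept in full, 16 of 16. None was 2-fold different, 15 of 16 had a log2 ratio above 0, against 51.6% of all genes kept, and 2 were at least 1.5-fold higher, the clathrin light chain Cltb at 20.0 and 38.2 RPKM and the adaptor subunit Ap2a1 at 18.2 and 29.8 RPKM. The median was 0.36, or 0.27 when corrected. The exception as deposited was Picalm, an adaptor that binds clathrin, at 325 and 257 RPKM. When corrected, Picalm (-0.21), Epn1 (-0.28) and Snx17 (-0.0019) lay below 0, and Ap2a1 (0.35) was below 1.5-fold. Dab2, an adaptor for receptors of the low density lipoprotein receptor family, was the highest at 485 and 646 RPKM.

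The ligands of the receptors were lower by their median. Of 10, 7 were kept, with a median log2 ratio of -0.27, and 1 was at least 2-fold lower, Hp, which encodes haptoglobin, the plasma protein that binds haemoglobin for CD163, at 3.69 and 0.779 RPKM. Apoe, a lipoprotein component that binds Lrp1, was at 4824 and 3630 RPKM, and Thbs1, the thrombospondin bound by CD36, at 413 and 343 RPKM. Neither reached 1.5-fold.

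Handling of what the receptors bring in was mixed. Of 7 haem and iron genes, 1 was at least 1.5-fold higher and 1 lower, and none reached 2-fold as deposited. Hmox1, which breaks down haem after CD163 has taken up haemoglobin, was at 396 and 789 RPKM, a log2 ratio of 0.99 that was 1.03 when corrected, just past 2-fold, and Slc40a1, the iron exporter ferroportin, at 5.87 and 2.46 RPKM, a log2 ratio of -0.99. Of 10 lipid genes, 1 was at least 1.5-fold higher, the fatty acid binding protein Fabp4 at 1.33 and 3.25 RPKM, and the median was -0.05. Plin2, which coats lipid droplets, was at 186 and 255 RPKM and Abca1, a cholesterol exporter, at 120 and 114 RPKM, neither past 1.5-fold.

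**Figure D4:**
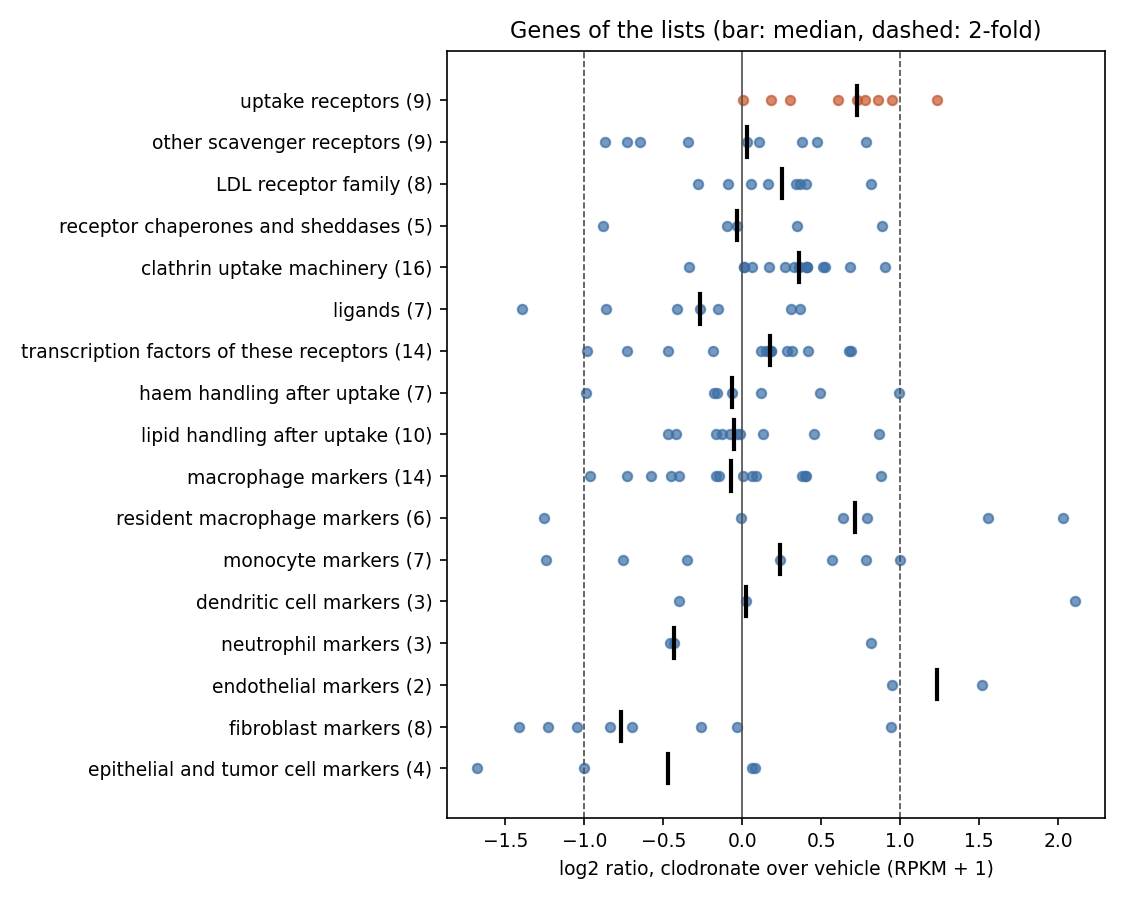
Log2 ratio of the kept genes of each list, clodronate over vehicle, 1 point a gene, with the number kept in parentheses, the median as a bar and dashed lines at 2-fold. The uptake receptors have a median of 0.73, close to that of the resident macrophage markers at 0.71 and above those of the other scavenger receptors at 0.03 and the macrophage markers at -0.07.

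Several of the 10 receptors, among them Mrc1, Cd163 and Stab1, are used as markers of tissue-resident macrophages. Of 8 other resident macrophage markers, 6 were kept, with a median log2 ratio of 0.71 (0.72 when corrected). At least 2-fold higher were Lyve1, a hyaluronan receptor, at 41.6 and 124 RPKM, and Ccl24, a chemokine, at 47.2 and 196 RPKM, and at least 2-fold lower was Vsig4, a complement receptor, at 45.1 and 18.3 RPKM. Folr2, at 275 and 477 RPKM, had a log2 ratio of 0.79 (1.01 when corrected), Cbr2 was at 1038 and 1033 RPKM, and Clec4f, a Kupffer cell marker, was listed at 0 in both. Their summed level was 1497 RPKM for vehicle and 1927 RPKM for clodronate, so the sum moved in the same direction as that of the receptors. Of the 6 markers kept, 4 had a log2 ratio above 0 and 2 below. The part of the resident macrophage markers in the result was not tested.

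Markers of monocytes and dendritic cells were also higher in sum. Of 7 monocyte markers all were kept, summed at 1688 RPKM for vehicle and 2452 RPKM for clodronate, with a median of 0.24, and of 8 dendritic cell markers 3 were kept, summed at 7.25 and 13.3 RPKM. Fn1, at 1530 and 2269 RPKM, carried most of the monocyte rise, and 4 of the 7 monocyte markers had a log2 ratio above 0 and 3 below. Cd209a, a lectin of dendritic cells, was the dendritic marker with a 2-fold difference, at 1.25 and 8.68 RPKM, and it carried the rise of the dendritic sum. Of the other dendritic markers kept, Ccr7 was lower, at 3.36 and 2.31 RPKM, and Zbtb46 was nearly level, at 1.05 and 1.09 RPKM. Of 7 neutrophil markers found 3 were kept, summed at 43.1 and 45.1 RPKM, with 4 listed at 0 in both. The part of these cells in the receptor levels was not tested.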

How the data were processed

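RNA of 2 libraries, 1 per condition, was analysed from the tables that the authors deposited, which give RPKM (reads scaled to transcript length and library size) for 23170 loci with RefSeq accessions and symbols. The submitters' processing notes name CASAVA 1.8.2, TopHat2 2.0.9, Bowtie 0.12.9, Cufflinks 2.2.1, Cuffdiff and the genome build mm9, without roles, and library strand is not given in the sources used here. RPKM are not counts, so no count model was used. Rows of 1 symbol were summed. Genes averaging 1 RPKM or more over the libraries were kept, a pseudocount of 1 was added and a 2-fold difference was the main rule of size, with 1.5-fold beside it. No p-value can be had from 1 library per condition.

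The receptors and the gene lists were chosen with earlier results of these data known. All receptors are named whatever their values, and any gene of the other lists may be. Values of some list genes are not reported here. Adgre1 was found as Emr1, and 1 list gene was not found. Nt5dc2 was named after its value was seen, as it shares the locus of Stab1. Read totals were estimated, after seeing the data, from the steps of low RPKM values and GENCODE M21 transcript lengths: 76.1% of low vehicle values and 76.5% of low clodronate values fell within 0.1 of a whole read, and the vehicle library was 1.23 times as deep by this estimate and by the most frequent ratio of low values. Counting intervals are 95% Poisson intervals, and for ratios conditional on the summed reads. They cover counting error only. For the correction, genes were put in 10 bins by GC content, then in 10 by transcript length, and each bin's median was subtracted, for 98.7% of the genes kept. Promoters came from RefSeq (GRCm38.p6), and coordinates of mm9 and GRCm38.p6 were kept apart. The calls and the depth estimate were tested on simulated data with known answers. The simulated differences were larger than those of the receptors, and the noise was counting error only. Calls of the receptors' size were therefore not tested. Python 3.11.15, numpy 2.4.6, pandas 2.3.3, scipy 1.17.1 and matplotlib 3.10.9 were used.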

Additional observations from a re-analysis of the deposited data

How the results depend on the processing

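No paired analysis was possible because there is a single library on each side, and leaving out a library was not possible for the same reason. The number of receptors at least 2-fold higher in the clodronate library was 1 as reported and 2 with a pseudocount of 0.1 (Cd163 and Marco). It was 2 with no filter on low values (Cd163 and Cd5l), where the 0 listed for Cd5l in the vehicle library can be a failed estimate. With no pseudocount, an alternative chosen after seeing the data, it was 2, and it was 6 at 1.5-fold and 0 at 3-fold. The receptors' median log2 ratio was 0.55 with the GC and length correction and between 0.67 and 0.75 under the others. Over all 10982 genes kept, 763 were at least 2-fold higher and 744 lower, against 314 and 255 at 3-fold and 1828 and 1789 at 1.5-fold. Among the 7957 genes averaging 5 RPKM or more, 346 were higher and 356 lower. With a pseudocount of 0.1 the numbers were 1032 and 1036, with no pseudocount 940 and 1002, and with no filter 939 and 892 of 22886 genes. No receptor was 2-fold lower under any of these. Cd163 ranged from 1.17 to 1.28, Mrc1 from 0.67 to 0.81, Lrp1 from 0.44 to 0.78, Stab1 from 0.27 to 0.61 and Scarb1 from -0.20 to 0.00 on the log2 scale.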
